A study of Mus musculus with 18 samples.

Results

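The unfolded protein response and the integrated stress response were followed in mouse brain cortex through 41 genes, listed by symbol and found in the count table among 55385 genes. All 41 passed the filter on low counts that left 18717 genes for testing. The genes were placed in 4 groups by role. They comprised 11 stress regulators and 10 genes of amino acid and one-carbon supply that ATF4 controls (called the ATF4 arm here). A sensor group of 4 genes held the endoplasmic reticulum (ER) sensor genes Eif2ak3, Ern1 and Atf6, and the transcription factor gene Xbp1. The other 16 were genes of ER folding and degradation (the chaperone arm). The list was made from knowledge of the pathway and not from levels in these libraries, but it was proposed with earlier results of these data in view.

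Polyadenylated RNA of the cortex was sequenced in 18 libraries, 6 from each of 3 genotypes. WT mice were of the C57BL/6J strain. Dp16 mice carry a segmental duplication of chromosome 16 that models trisomy 21. Dp16_2xIFNRs mice carry the same duplication with the cluster of interferon receptor genes inside it returned to the normal copy number. Each genotype was represented by 3 males and 3 females aged 17.1 to 18 weeks, and no treatment was given. The duplication is present in every cell of the body and not only in the brain. Libraries held between 46346019 and 67281449 counts. None of the 41 genes lies in the duplicated segment, which runs from Lipi to Zbtb21 (chr16:75540514-97962622, GRCm38).

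Proteins that enter the ER are folded by chaperones, and misfolded proteins that accumulate there activate 3 membrane sensors. PERK, the product of Eif2ak3, phosphorylates the translation factor eIF2, which lowers protein synthesis but favours translation of Atf4. Other kinases act on the same site of eIF2 after amino acid shortage, double-stranded RNA or haem shortage, and this shared pathway is the integrated stress response. ATF4 then raises genes that take up and make amino acids, whereas the other 2 sensors, IRE1 (Ern1, acting through Xbp1) and ATF6, mainly raise chaperones and degradation factors. ATF4 is controlled largely by translation, so its transcript level is not a direct measure of its activity.

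The arms also differ in the promoter elements by which they are known, and the promoters are shown for this reason. RefSeq promoter windows of 300 bases, from 250 before to 50 after the start site (GRCm38.p6), were matched by symbol for 36 of the 41 genes. They were searched on both strands for the CARE element of ATF4 (TGATGNAA) and for the ER stress response element ERSE (CCAAT and CCACG with 9 bases between). A CARE match was found in 2 of 8 ATF4 arm genes with a window and in 4 of 11 stress regulators (Atf3, Chac1, Nupr1 and Trib3). It was found in 0 of 3 genes of the sensor group and in 1 of 14 chaperone arm genes (Herpud1). Of all 27025 genes with a window, 4.511% had one, as did 3.969% of all 32851 windows. An ERSE match was found in 7 of 14 chaperone arm genes (Calr, Canx, Creld2, Dnajc3, Hsp90b1, Hspa5 and Pdia6). None of the 22 other listed genes with a window had one, against 0.137% of all genes with a window and 0.119% of all windows. The UPRE (TGACGTGG) matched no listed gene, 0.714% of all genes with a window and 0.676% of all windows. Capitals mark the match in the stretches below, which read in the direction of the gene. The ATF4 arm matches lie at chr6:7693210-7693257 (minus strand) for Asns and chr3:50443628-50443704 (minus strand) for Slc7a11, whose window holds 2 matches in opposite directions.
Asns: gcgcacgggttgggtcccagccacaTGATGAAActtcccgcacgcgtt
Slc7a11: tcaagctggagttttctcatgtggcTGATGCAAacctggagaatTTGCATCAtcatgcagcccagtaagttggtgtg

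Of the 7 chaperone arm genes with an ERSE, the 4 of smallest p-value against WT are shown. They lie at chr14:118937802-118937870 for Dnajc3, chr15:88819495-88819563 for Creld2, chr2:34772000-34772068 for Hspa5 and chr12:17266466-17266534 for Pdia6, all on the plus strand. The Creld2 match reads on the opposite strand, so that the capitals begin with the reverse complement of CCACG. A match describes letters and does not show that a factor bound there.
Dnajc3: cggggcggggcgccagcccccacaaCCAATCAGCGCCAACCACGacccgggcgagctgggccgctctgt
Creld2: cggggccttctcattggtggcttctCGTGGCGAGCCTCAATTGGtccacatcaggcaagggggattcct
Hspa5: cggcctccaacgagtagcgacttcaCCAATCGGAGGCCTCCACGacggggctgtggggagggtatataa
Pdia6: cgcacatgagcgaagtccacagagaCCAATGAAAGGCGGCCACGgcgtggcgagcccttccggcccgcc

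Levels between genes were compared as RPKM, which are counts scaled by the library total and by the length of the gene. The chaperones were the most abundant of the listed genes. Calr and Canx, which encode the lectin chaperones calreticulin and calnexin, had means of 185 ± 13.2 and 89.9 ± 2.91 RPKM over all 18 libraries (SD). Hsp90b1, the ER member of the HSP90 family, had 114 ± 6.02 RPKM, and Hspa5, which encodes the master chaperone BiP, had 63.1 ± 8.76 RPKM. Atf4 itself stood among them at 69.7 ± 8.25 RPKM. Of the ATF4 arm, Psat1, Asns and Slc3a2 were highest, at 40.7 ± 1.96, 40.2 ± 4.25 and 38.9 ± 2.33 RPKM, and could not be ranked against each other within that spread. At the other end were Ern1 (1.41 ± 0.152 RPKM), Atf3 (0.72 ± 0.427 RPKM), Aldh1l2 (0.628 ± 0.0742 RPKM) and Trib3 (0.299 ± 0.0815 RPKM). The fewest reads of any listed gene in a library numbered 18.

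**Figure D1:**
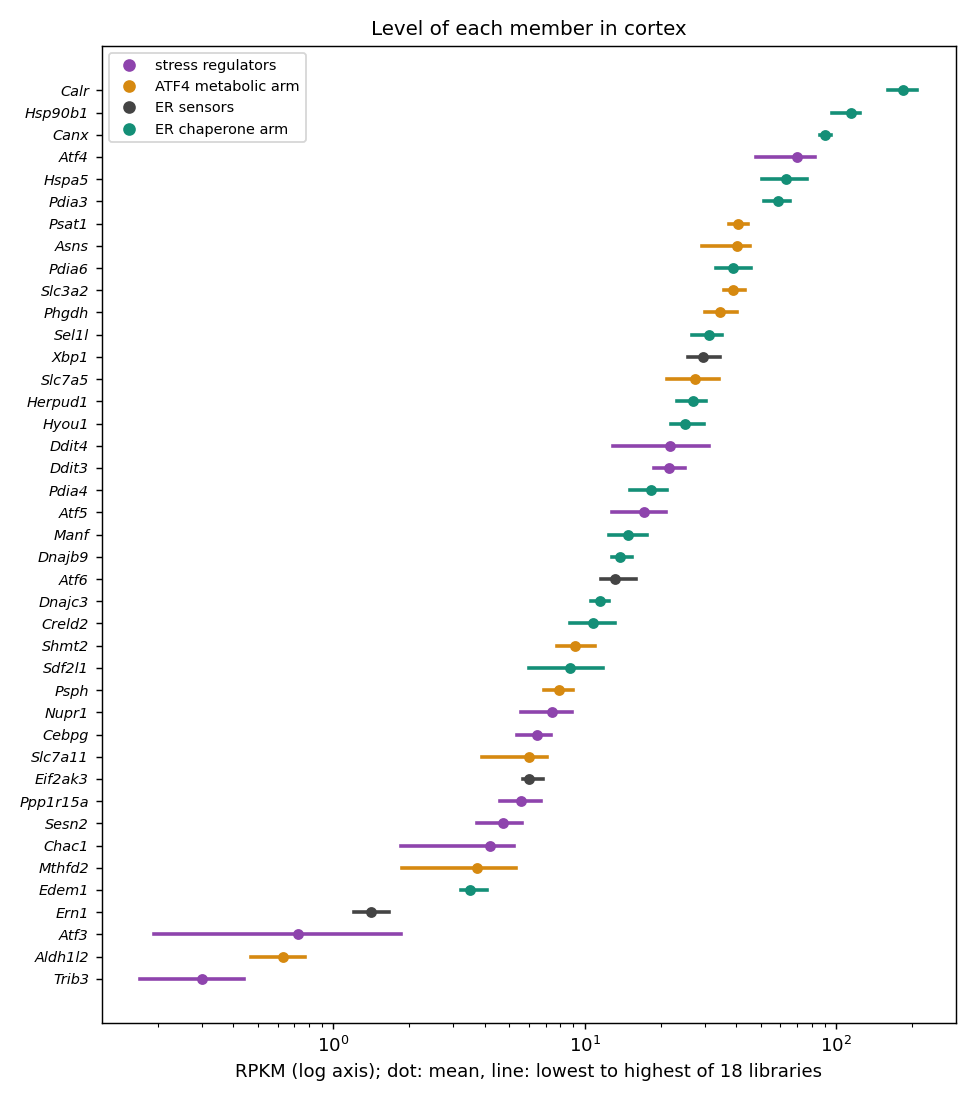
Mean level of each of the 41 genes over 18 libraries in RPKM on a log axis, with a line from the lowest to the highest library and colours for the 4 groups. Calr stands highest at 185 RPKM and Trib3 lowest at 0.299 RPKM, and the widest line is that of Atf3.

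The genes differed in how much they varied between libraries of the same genotype and sex. The median residual SD of the log2 level was 0.12 over the 41 genes and 0.16 over all genes tested. Atf3, an early response factor, had the largest residual SD of the list (0.70), followed by Ddit4, an inhibitor of mTORC1 that glucocorticoids and hypoxia also raise (0.37). Canx and Dnajb9 had the smallest, at 0.06 each. Fold changes against WT were least precise for Atf3 (SE 0.37 in Dp16) and Trib3 (SE 0.224), the latter a gene of few reads, and a 95% interval for Atf3 in Dp16 against WT ran from 0.739-fold to 2.17-fold.

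Against WT, 1 of 41 genes was called in each duplication genotype at an adjusted p below 0.05 (edgeR quasi-likelihood test, Benjamini-Hochberg over all genes). In Dp16 this was the stress regulator Atf5, and 0.748% of all genes tested were called in that comparison, 0.636% as higher. In Dp16_2xIFNRs it was Mthfd2 of the one-carbon pathway, against 1.05% of all genes, 0.737% as higher. A single gene of 41 in each comparison gives no count that could be told from these shares. At an unadjusted p below 0.05 stood 5 of 41 genes in Dp16 (12.2%, against 8.84% of all genes) and 8 of 41 in Dp16_2xIFNRs (19.5%, against 11.5%), where all 8 were higher. Of the 5 in Dp16, Dnajb9 was lower. Both comparisons use the same 6 WT libraries, so that a high or low WT library moves both in the same direction. In bulk cortex a change in the number of expressing cells and a change in RNA per cell cannot be told apart.

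**Figure D2:**
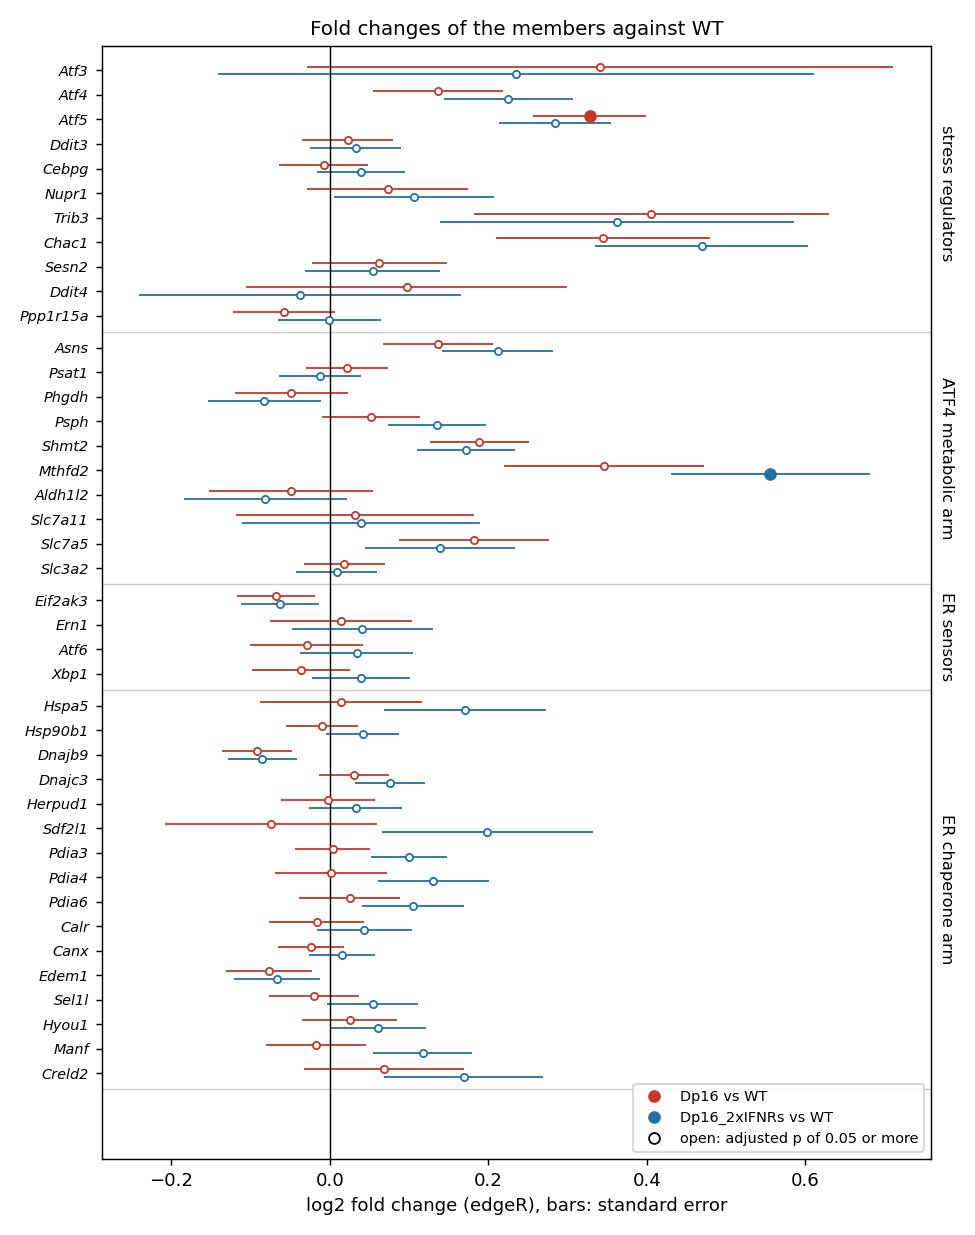
Log2 fold change of each of the 41 genes in Dp16 (red) and Dp16_2xIFNRs (blue) against WT from edgeR, with bars of 1 standard error and filled points for an adjusted p below 0.05. Filled points are Atf5 in Dp16 at 0.33 and Mthfd2 in Dp16_2xIFNRs at 0.56, and most chaperone genes lie within 0.2 of 0.

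Atf5 encodes a transcription factor of the same family as ATF4 that is translated under stress by a like mechanism and raises chaperones of mitochondria. The gene (ENSMUSG00000038539.15) lies at chr7:44812256-44816658 on the minus strand. Its level, as the count scaled to a common library size after TMM normalization (CPM), was 25.3 in the lowest, 29.4 in the median and 33.1 in the highest WT library. The corresponding values were 34.2, 35.7 and 41.7 CPM in Dp16 and 32.3, 36.1 and 39.7 CPM in Dp16_2xIFNRs. All 6 Dp16 libraries thus lay above all 6 WT libraries, whereas 1 Dp16_2xIFNRs library lay within the WT range. Of all genes tested, 0.721% were higher in Dp16 without overlap.

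Atf5 rose 1.25-fold in Dp16 (95% interval 1.13 to 1.39, log2 fold change 0.33, SE 0.0712, adjusted p = 0.0286). In Dp16_2xIFNRs it was 1.22-fold above WT (1.1 to 1.35, log2 fold change 0.28, SE 0.0712) and did not pass the adjusted threshold (adjusted p = 0.0612). The difference between both duplication genotypes was -0.04 (SE 0.0708, adjusted p = 1). The Dp16 call ended without WT replicate 2, 3, 5 or 6 or Dp16 replicate 1 or 4 (adjusted p up to 0.0932, without Dp16 replicate 4), and with only WT and Dp16 in the fit (adjusted p = 0.0936), with a log2 fold change of 0.29 to 0.37 throughout. The antisense gene Nup62 shares 571 bases with Atf5, and since the strand setting of the counting is not given, reads there cannot be assigned with certainty. Nup62 itself had log2 fold changes of -0.03 and -0.05 in Dp16 and Dp16_2xIFNRs against WT.

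Atf4, the central transcription factor of the response, had 83.6, 113 and 135 CPM in the lowest, median and highest WT library. Dp16 libraries had 118, 121 and 125 CPM and Dp16_2xIFNRs libraries 119, 129 and 141 CPM. The WT libraries enclosed the whole Dp16 range, and WT replicates 2 and 5 were the lowest of the 18. The log2 fold change was 0.14 in Dp16 (SE 0.0814, adjusted p = 0.692) and 0.23 in Dp16_2xIFNRs (SE 0.0814, adjusted p = 0.245), and neither was called.

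Chac1 encodes an enzyme that degrades glutathione and is among the most responsive targets of ATF4. It had 3.01, 5.52 and 7.48 CPM in the lowest, median and highest WT library, 5.94, 7.01 and 8.22 CPM in Dp16 and 7.29, 7.6 and 8.39 CPM in Dp16_2xIFNRs. WT replicate 5 was the lowest of all, and 2 WT libraries reached into the range of Dp16_2xIFNRs. Chac1 was 1.27-fold above WT in Dp16 (95% interval 1.05 to 1.54, adjusted p = 0.416) and 1.38-fold in Dp16_2xIFNRs (1.14 to 1.68, adjusted p = 0.12). The latter passed with DESeq2 (adjusted p = 0.0326), while over the other alternatives to the edgeR fit the adjusted p ranged up to 0.237.

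Trib3, which encodes a pseudokinase that feeds back on ATF4, was the least abundant of the 41 genes. Its WT libraries had 0.35, 0.453 and 0.746 CPM, those of Dp16 0.472, 0.665 and 0.868 CPM and those of Dp16_2xIFNRs 0.513, 0.649 and 0.768 CPM. The groups overlapped, and the log2 fold changes of 0.41 (SE 0.224, adjusted p = 0.65) and 0.36 (SE 0.223, adjusted p = 0.595) were not called.

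Ddit3 encodes CHOP, a factor that promotes cell death under sustained stress. It had 17.3, 18.7 and 22.1 CPM in WT, 17.7, 19.6 and 20.3 CPM in Dp16 and 18.9, 19.4 and 20.3 CPM in Dp16_2xIFNRs, so that both duplication genotypes lay inside the WT range. The fold changes were 1.02 in Dp16 (95% interval 0.935 to 1.1) and 1.02 in Dp16_2xIFNRs (0.942 to 1.11). A nested second annotation of Ddit3 had 0 counts in all libraries, and reads in the shared part may have been left uncounted. The other 6 stress regulators had log2 fold changes from -0.06 (Ppp1r15a, the subunit that restores eIF2 by dephosphorylation) to 0.34 (Atf3, SE 0.37) in Dp16. In Dp16_2xIFNRs they ran from -0.04 (Ddit4) to 0.23 (Atf3, SE 0.376), and none was called. Of the 11 stress regulators, 9 were above WT in each duplication genotype, against 49.3% of all genes tested in Dp16 and 50.2% in Dp16_2xIFNRs.

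Mthfd2 encodes the mitochondrial enzyme that oxidises methylene-tetrahydrofolate, and ATF4 raises it in dividing and in stressed cells. The gene (ENSMUSG00000005667.8) lies at chr6:83305691-83325908 on the minus strand. WT libraries had 3.97, 6.65 and 7.83 CPM as the lowest, median and highest value, Dp16 libraries 6.95, 7.94 and 8.62 CPM and Dp16_2xIFNRs libraries 8.15, 8.86 and 11.2 CPM. All 6 Dp16_2xIFNRs libraries exceeded all 6 WT libraries, and Dp16 lay between and overlapped both. Of all genes tested, 0.93% were higher in Dp16_2xIFNRs without overlap.

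Mthfd2 rose 1.47-fold in Dp16_2xIFNRs (95% interval 1.23 to 1.76, log2 fold change 0.56, SE 0.126, adjusted p = 0.0328). In Dp16 it was 1.27-fold above WT (1.06 to 1.52, log2 fold change 0.35, SE 0.126) and was not called (adjusted p = 0.36). The difference between Dp16_2xIFNRs and Dp16 was 0.21 (SE 0.124, adjusted p = 1). The call in Dp16_2xIFNRs ended without WT replicate 1, 2, 3 or 5 or Dp16_2xIFNRs replicate 2, 3, 4 or 5 (adjusted p up to 0.0916, without Dp16_2xIFNRs replicate 2), and with only both genotypes in the fit (adjusted p = 0.103), at log2 fold changes of 0.45 to 0.62. WT replicates 2 and 5, both females, had the lowest values. Gm43890, annotated on the same strand within Mthfd2, had a mean of 13.5 reads against 414.5 for Mthfd2.

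Shmt2 encodes the mitochondrial enzyme that turns serine into glycine and feeds MTHFD2. Its WT libraries had 18.1, 19 and 21.7 CPM, those of Dp16 19.3, 22 and 25.1 CPM and those of Dp16_2xIFNRs 20.2, 22.1 and 23.1 CPM. The highest WT library reached into both other groups. The log2 fold changes of 0.19 (SE 0.0621, adjusted p = 0.264) and 0.17 (SE 0.062, adjusted p = 0.241) were close to each other and not called.

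Asns encodes asparagine synthetase, whose promoter match is shown above. It had 62.9, 83.8 and 93.4 CPM in WT, 76.7, 89.6 and 92.1 CPM in Dp16 and 87.2, 93.3 and 98.7 CPM in Dp16_2xIFNRs. WT replicates 5 and 2 were again the lowest of the 18 libraries, and the highest WT library lay above the highest of Dp16. Log2 fold changes were 0.14 in Dp16 (SE 0.0697, adjusted p = 0.604) and 0.21 in Dp16_2xIFNRs (SE 0.0697, adjusted p = 0.19).

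None of the 3 genes of serine synthesis was called. Phgdh, which encodes the first enzyme and is expressed mainly by astrocytes in the brain, had 56.2, 67.4 and 78.1 CPM in WT, 57, 62.9 and 74.4 CPM in Dp16 and 55.6, 64.7 and 68 CPM in Dp16_2xIFNRs. Its log2 fold changes were -0.05 (SE 0.0713) and -0.08 (SE 0.0712), and those of Psat1, the second enzyme, were 0.02 (SE 0.0513) and -0.01 (SE 0.0513). Psph, which completes the pathway, had 12.1, 12.9 and 14.5 CPM in WT, 11.6, 13.7 and 14.9 CPM in Dp16 and 13.3, 14.4 and 15.3 CPM in Dp16_2xIFNRs. Its log2 fold change was 0.05 in Dp16 (SE 0.0618, adjusted p = 0.9) and 0.14 in Dp16_2xIFNRs (SE 0.0616, adjusted p = 0.407). The ranges of all 3 genes overlapped between genotypes.

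The amino acid transporters of the list were Slc7a5 and Slc3a2, which form the large neutral amino acid carrier, and Slc7a11, which imports cystine and also pairs with Slc3a2. Slc7a5 had log2 fold changes of 0.18 (SE 0.0946) in Dp16 and 0.14 (SE 0.0946) in Dp16_2xIFNRs, against 0.02 and 0.01 (SE 0.0509 each) for its partner Slc3a2. Slc7a11, which has 2 CARE matches, varied from 37.8 to 71.4 CPM within WT and had log2 fold changes of 0.03 and 0.04 (SE 0.15 each). The mitochondrial folate enzyme gene Aldh1l2 had -0.05 and -0.08 (SE 0.103 each). Over the ATF4 arm, 8 of 10 genes were above WT in Dp16 (against 49.3% of all genes) and 7 of 10 in Dp16_2xIFNRs (against 50.2%). Without Dp16_2xIFNRs replicate 3 or WT replicate 2 the latter count was 5, as it was with age in the fit.

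**Figure D3:**
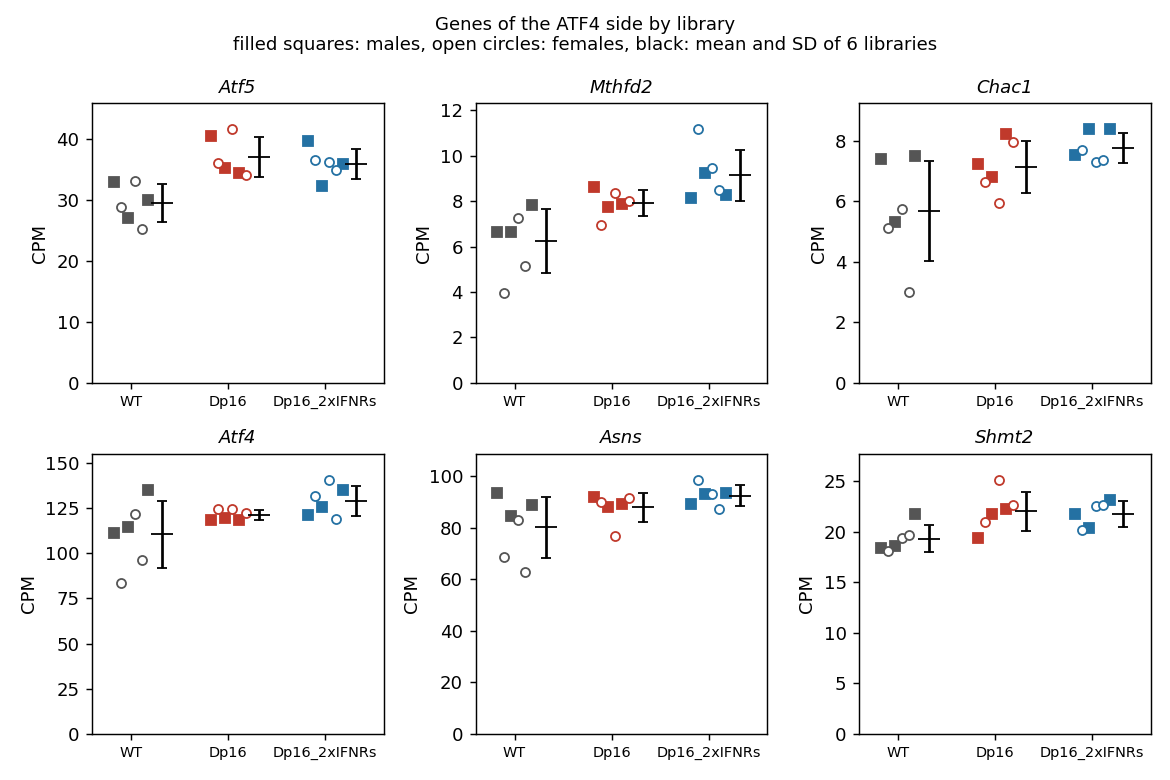
CPM of Atf5, Mthfd2, Chac1, Atf4, Asns and Shmt2 in each of the 18 libraries, with filled squares for males, open circles for females and the mean and SD of 6 libraries in black. Atf5 in Dp16 and Mthfd2 in Dp16_2xIFNRs lie wholly above WT, and in the panels of Atf4, Asns and Mthfd2 the same 2 female WT libraries are lowest.

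None of the 4 genes of the sensor group was called against WT (edgeR or DESeq2), and none had an unadjusted p below 0.05. Eif2ak3 had 28.7, 29.2 and 34.1 CPM in the lowest, median and highest WT library, 27.2, 28.3 and 30.5 CPM in Dp16 and 27.9, 28.1 and 30 CPM in Dp16_2xIFNRs. Its fold change was 0.954 in Dp16 (95% interval 0.888 to 1.02) and 0.958 in Dp16_2xIFNRs (0.892 to 1.03). Ern1, which encodes IRE1, had 10.2, 10.9 and 13.2 CPM in WT, 10.4, 11.4 and 12.5 CPM in Dp16 and 9.63, 11.7 and 13.4 CPM in Dp16_2xIFNRs, with complete overlap.

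Atf6 had 84.9, 93 and 114 CPM in WT, 83.5, 92.2 and 108 CPM in Dp16 and 90.7, 101 and 102 CPM in Dp16_2xIFNRs. Its log2 fold changes were -0.03 (SE 0.0716) and 0.03 (SE 0.0715). Xbp1, whose transcript IRE1 splices, had 62.4, 68.2 and 81.5 CPM in WT, 63, 67.5 and 74.5 CPM in Dp16 and 62.6, 73.7 and 78.3 CPM in Dp16_2xIFNRs. The gene counts do not separate its spliced form. The ranges overlapped for both genes, and the smallest adjusted p of the 4 genes of the sensor group against WT was 0.709.

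In the chaperone arm, 0 of 16 genes were called against WT in either duplication genotype. An unadjusted p below 0.05 was reached by 1 gene in each comparison (6.25%, against 8.84% of all genes in Dp16 and 11.5% in Dp16_2xIFNRs). DESeq2 also called none. Hspa5 had 191, 218 and 275 CPM in the lowest, median and highest WT library, 185, 231 and 256 CPM in Dp16 and 208, 261 and 289 CPM in Dp16_2xIFNRs. The spread within each genotype was wider than the distance between the medians, and the groups overlapped. The log2 fold change was 0.01 in Dp16 (SE 0.102) and 0.17 in Dp16_2xIFNRs (SE 0.102, adjusted p = 0.575).

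Pdia3 encodes a disulfide isomerase that works with calreticulin and calnexin. Its WT libraries had 146, 154 and 176 CPM, those of Dp16 150, 159 and 165 CPM and those of Dp16_2xIFNRs 150, 172 and 183 CPM, with overlap of all 3 groups. The log2 fold changes were 0.00 (SE 0.0478) and 0.10 (SE 0.0478, unadjusted p = 0.0498, adjusted p = 0.434). Pdia4, another disulfide isomerase, had 38, 42.3 and 47.4 CPM in WT, 35.5, 43.9 and 45.8 CPM in Dp16 and 40.8, 47.3 and 50.7 CPM in Dp16_2xIFNRs. Its log2 fold change was 0.13 in Dp16_2xIFNRs (SE 0.0701, adjusted p = 0.513).

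Manf encodes a secreted factor that ER stress releases and that protects neurons. It had 30.8, 37 and 38.7 CPM in WT, 32.1, 35.5 and 37.6 CPM in Dp16 and 36.1, 38.3 and 42.5 CPM in Dp16_2xIFNRs. The log2 fold change was -0.02 in Dp16 (SE 0.0627) and 0.12 in Dp16_2xIFNRs (SE 0.0626, adjusted p = 0.51). Dnajb9, a co-chaperone of BiP that restrains IRE1, was below WT in both genotypes. It had 33.1, 35.1 and 38.3 CPM in WT, 31.5, 33.6 and 34.5 CPM in Dp16 and 32.4, 33.4 and 35.2 CPM in Dp16_2xIFNRs, with log2 fold changes of -0.09 in both (SE 0.0439 and 0.0438, adjusted p = 0.564 and 0.48).

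The other chaperone arm genes lay close to WT. Their log2 fold changes in Dp16 ran from -0.08 (Edem1, which directs misfolded glycoproteins to degradation) to 0.07 (Creld2, a disulfide isomerase-like factor). In Dp16_2xIFNRs they ran from -0.07 (Edem1) to 0.20 (Sdf2l1, a partner of BiP, SE 0.133). For the abundant genes the intervals were narrow: that of Canx in Dp16 ran from 0.926-fold to 1.04-fold and that of Hsp90b1 from 0.93-fold to 1.06-fold. Of all genes tested, 49.3% were above WT in Dp16 and 50.2% in Dp16_2xIFNRs. In Dp16_2xIFNRs 14 of 16 chaperone arm genes were above WT. In Dp16 7 of 16 were above WT, a count that became 2 when WT replicate 3 was left out and 4 when Dp16 replicate 2 or 4 was. It was 11 without WT replicate 6 or Dp16 replicate 6, and 12 without both WT replicate 6 and Dp16 replicate 3.

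**Figure D4:**
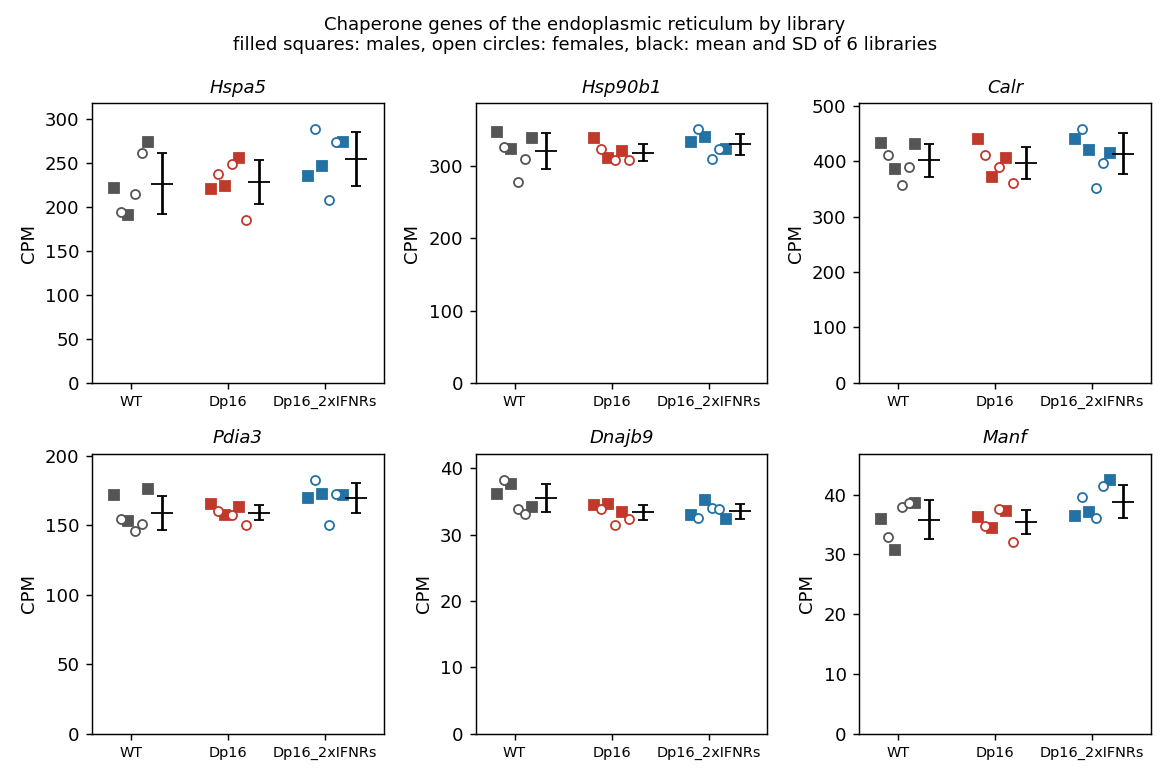
CPM of Hspa5, Hsp90b1, Calr, Pdia3, Dnajb9 and Manf in each of the 18 libraries, with filled squares for males, open circles for females and the mean and SD of 6 libraries in black. The 3 genotypes overlap in every panel.

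The arms were compared by the median log2 fold change of their genes, a description without a test. In Dp16 against WT it was 0.04 for the ATF4 arm and -0.01 for the chaperone arm, beside -0.00 over all genes tested. In Dp16_2xIFNRs it was 0.09 and 0.07, beside 0.00 over all genes. The ATF4 arm less the chaperone arm was 0.05 in Dp16 and stayed above 0 without any 1 library (0.02 to 0.09). In Dp16_2xIFNRs the difference was 0.02 and its direction was not stable. It was -0.02 without WT replicate 2 or Dp16_2xIFNRs replicate 4, -0.01 without WT replicate 6 or Dp16_2xIFNRs replicate 1, and just below 0 without Dp16_2xIFNRs replicate 3. It was -0.03 with age in the fit and -0.01 without both WT replicate 6 and Dp16 replicate 3. With the stress regulators other than Atf4 counted to the ATF4 arm, the differences were 0.07 and 0.01. Without them, the ATF4 arm less the chaperone arm was -0.08 in Dp16_2xIFNRs against Dp16 (-0.11 to -0.04 with 1 library left out). Between females and males it was 0.07, larger than the difference in Dp16 against WT.

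Each library was also given a score per arm, the mean over its genes of the log2 CPM less the WT mean. The WT libraries had ATF4 arm scores between -0.16 and 0.15. Those of Dp16 lay between 0.03 and 0.22, and those of Dp16_2xIFNRs between 0.04 and 0.17. All 6 libraries of each duplication genotype lay above the WT mean, as did 3 WT libraries, and the lowest score was that of WT replicate 2. Chaperone arm scores of WT lay between -0.09 and 0.12. Those of Dp16 lay between -0.15 and 0.05 and those of Dp16_2xIFNRs between -0.05 and 0.16, with 4 and 5 of 6 libraries above the WT mean. The ATF4 arm score less the chaperone arm score ran from -0.12 to 0.21 within WT alone. This is a spread of single libraries and not the error of a difference between arm medians. By the ranges of their scores, both arms overlapped between genotypes.

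**Figure D5:**
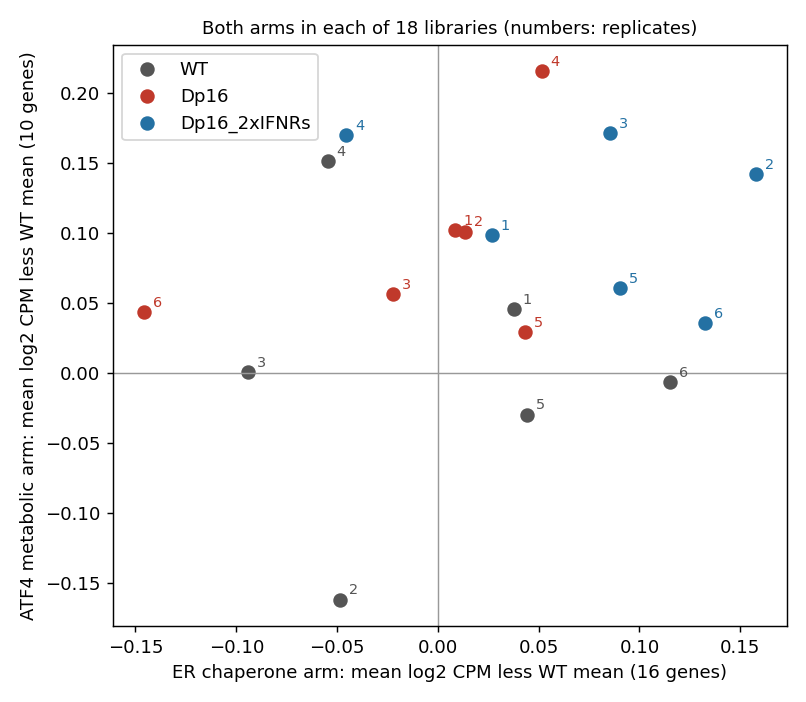
Score of the ATF4 arm (10 genes, vertical) against that of the chaperone arm (16 genes, horizontal) in each of 18 libraries, both as mean log2 CPM less the WT mean, with replicate numbers beside the points. All 12 points of the duplication genotypes lie above 0 on the vertical axis, while all 3 genotypes spread to both sides of 0 on the horizontal one.

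The duplication genotypes were also compared with each other, which asks what the added interferon receptor copies change. None of the 41 genes was called (edgeR or DESeq2), against 0.0214% of all genes tested by edgeR. Manf was the 1 gene with an unadjusted p below 0.05, a level that 2.19% of all genes reached (edgeR log2 fold change 0.13, SE 0.0626, adjusted p = 1). No listed gene separated both genotypes without overlap, while 0.0321% of all genes did as higher and 0.0748% as lower in Dp16_2xIFNRs. All 16 chaperone arm genes were higher in Dp16_2xIFNRs than in Dp16, from 0.01 (Dnajb9) to 0.27 (Sdf2l1) on the log2 scale, with a median of 0.07. Of all genes tested, 50.9% were higher in Dp16_2xIFNRs than in Dp16. The chaperone score of Dp16 replicate 6 was the lowest of all libraries at -0.15, and without that library 14 of 16 genes were higher. The count was also 14 without Dp16_2xIFNRs replicate 3 and with age in the fit. It was 15 without Dp16 replicate 4 or Dp16_2xIFNRs replicate 4 or 5. The ATF4 arm had a median of -0.01, with 4 of 10 genes higher in Dp16_2xIFNRs, or 7 of 10 without Dp16 replicate 4.

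Sex entered every fit as a term. None of the 41 genes was called between females and males (edgeR), against 0.0641% of all genes, of which 0.0321% were higher and 0.0321% lower in females. An unadjusted p below 0.05 was reached by 4 of 41, against 6.64% of all genes. The largest difference was that of Atf3, which ran from 0.429 CPM in a male to 3.98 CPM in a female library and had a log2 difference, female less male, of 1.02 (adjusted p = 0.741). The others were Chac1 (-0.25), Asns (-0.12) and Ppp1r15a (0.11). A difference of the genotype effect between sexes was called for 0 genes of the whole table in either comparison with WT. Of the 41 genes, the smallest p belonged to Ddit3, with a difference (female less male) of -0.28 in Dp16 and -0.26 in Dp16_2xIFNRs (edgeR, adjusted p = 1 and 0.826). An unadjusted p below 0.05 was also reached by Atf4 in Dp16 (0.32) and, in Dp16_2xIFNRs, by Asns (0.33) and Mthfd2 (0.55).

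The wider pathway was read from 8 further lists with 102 genes, of which 99 were tested. Hspa13, which encodes an ER-associated HSP70-like ATPase, was the 1 gene of these lists inside the duplicated segment. It had 33, 35.9 and 37.1 CPM in WT, 50.6, 51.8 and 58.9 CPM in Dp16 and 49.7, 52.7 and 54.4 CPM in Dp16_2xIFNRs, with no overlap. It rose 1.49-fold in Dp16 (adjusted p = 7.53e-08) and 1.47-fold in Dp16_2xIFNRs (adjusted p = 1.38e-07). Outside the segment the 1 called gene was Bbc3, which encodes the cell death protein PUMA. It had 6.17, 6.63 and 7.67 CPM in WT, 4.3, 5.65 and 6.32 CPM in Dp16 and 4.04, 4.27 and 5.83 CPM in Dp16_2xIFNRs.

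Bbc3 fell by 0.51 on the log2 scale in Dp16_2xIFNRs (SE 0.119, adjusted p = 0.0399), a comparison in which 0.31% of all genes tested were called as lower. There all libraries lay below all WT libraries, as for 0.411% of all genes tested. The log2 fold change was -0.32 in Dp16 (SE 0.119, adjusted p = 0.373). The call ended without WT replicate 1, 2, 3, 4 or 5, Dp16 replicate 3 or Dp16_2xIFNRs replicate 2, 3, 5 or 6. The highest adjusted p was 0.114, without Dp16_2xIFNRs replicate 5. In the list of Bbc3, that of other stress effectors, 6 of 9 tested genes were above WT in Dp16_2xIFNRs, against 50.2% of all genes. An unadjusted p below 0.05 was reached there by 4 of the 9 (44.4%, against 11.5% of all genes), 3 higher and 1, Bbc3, lower.

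Of 12 genes of cytosolic tRNA synthetases, which ATF4 also raises, none was called by edgeR or DESeq2. In Dp16 and Dp16_2xIFNRs 2 and 6 had an unadjusted p below 0.05, against 8.84% and 11.5% of all genes. All 12 were above WT in both duplication genotypes, with medians of 0.07 and 0.10 on the log2 scale. Of all genes tested, 49.3% and 50.2% were above WT. All 12 were also higher in Dp16_2xIFNRs than in Dp16 (median 0.04), against 50.9% of all genes. That count was 9 with age in the fit, 10 without Dp16_2xIFNRs replicate 4 and 11 or 12 in the other fits. Between the sexes all 12 were lower in females (median -0.08), 4 of them at an unadjusted p below 0.05. The count of 12 above WT fell to 9 in Dp16 without WT replicate 5. Yars had the smallest p of them, at 76.4, 88.1 and 96.7 CPM in WT and 95.1, 95.7 and 98.9 CPM in Dp16_2xIFNRs (log2 fold change 0.15, SE 0.0505, adjusted p = 0.194). Of 14 further amino acid supply genes, 11 were above WT in Dp16 and 12 in Dp16_2xIFNRs, and edgeR called none. An unadjusted p below 0.05 was reached by 6 in each comparison, against 8.84% of all genes in Dp16 and 11.5% in Dp16_2xIFNRs. Of the 6 in Dp16, 4 were higher and 2 lower, while in Dp16_2xIFNRs all 6 were higher. DESeq2 called Slc1a5 and Slc7a3 in Dp16_2xIFNRs. Slc1a5, a neutral amino acid transporter, had 1.79, 2.05 and 2.66 CPM in WT, 2.24, 3.07 and 3.94 CPM in Dp16 and 2.55, 3.21 and 4.81 CPM in Dp16_2xIFNRs. Its log2 fold changes were 0.53 (SE 0.168, adjusted p = 0.237) and 0.65 (SE 0.167, adjusted p = 0.0684). In Dp16_2xIFNRs it passed with DESeq2 (adjusted p = 0.0117), with no filter, with only both genotypes in the fit, with the replicate number or the shared library number as a block, and without Dp16 replicate 2 (0.0479), while without Dp16_2xIFNRs replicate 5 its adjusted p was 0.185.

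Among 14 genes of eIF2, its kinases, phosphatase and exchange factor, 0 were called against WT by edgeR. An unadjusted p below 0.05 was reached by 1 in Dp16 (7.14%, against 8.84% of all genes) and 2 in Dp16_2xIFNRs (14.3%, against 11.5%). Eif2ak2, the interferon-induced kinase PKR, had 5.05, 6.32 and 8.19 CPM in WT, 6.6, 7.72 and 8.07 CPM in Dp16 and 6.88, 8.06 and 8.89 CPM in Dp16_2xIFNRs. Its log2 fold change was 0.27 in Dp16 (SE 0.0982, adjusted p = 0.347) and 0.35 in Dp16_2xIFNRs (SE 0.0979, adjusted p = 0.115). The latter passed with DESeq2 (adjusted p = 0.0321) and in edgeR without WT replicate 4 (0.022), and its adjusted p was 0.241 without Dp16_2xIFNRs replicate 5. Neither edgeR nor DESeq2 called a gene against WT among 15 of ER translocation, 13 of ER-associated degradation and 9 tested further ER stress factors. Their smallest p-values belonged to Spcs2 (log2 fold change 0.07 in Dp16), Derl3 (-0.56, SE 0.177, adjusted p = 0.238 in Dp16) and Creb3l1 (-0.28 in Dp16_2xIFNRs, SE 0.129, adjusted p = 0.417).

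Cell type markers were compared as summed CPM, since several of the genes are enriched in 1 cell type. Among 66 genes in 11 lists of cell type, region and activity markers edgeR called 0 against WT. In each comparison 7 had an unadjusted p below 0.05, against 8.84% of all genes in Dp16 and 11.5% in Dp16_2xIFNRs. DESeq2 called Mobp in Dp16_2xIFNRs, where it called 405 of 18717 genes. The summed levels of every list overlapped between genotypes. Astrocyte markers (7 genes) summed to 5131 to 7939 CPM in WT libraries, 5844 to 7876 CPM in those of Dp16 and 5783 to 7727 CPM in those of Dp16_2xIFNRs. Neuronal markers (7 genes) summed to 6417 to 7826, 6170 to 7382 and 6678 to 7309 CPM in the same order. Oligodendrocyte markers (6 genes) had medians of 5122 CPM in WT, 5095 in Dp16 and 5676 in Dp16_2xIFNRs. For microglial markers (6 genes) the sums were 281 to 437, 320 to 395 and 327 to 385 CPM. Choroid plexus markers (5 genes) ranged most widely, from 4.95 to 193 CPM in WT, 6.19 to 374 CPM in Dp16 and 5.98 to 17.7 CPM in Dp16_2xIFNRs.

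The 3 single markers of smallest p in the astrocyte, oligodendrocyte and microglia lists are given beside these sums. Mobp, a myelin gene, had 203, 239 and 295 CPM in the lowest, median and highest WT library, 239, 290 and 367 CPM in Dp16 and 278, 322 and 382 CPM in Dp16_2xIFNRs (log2 fold change 0.28, adjusted p = 0.394, and 0.43, adjusted p = 0.0572). Gfap, which marks astrocytes and rises when they react to injury, had 117, 146 and 176 CPM in WT, 152, 181 and 210 CPM in Dp16 and 155, 168 and 200 CPM in Dp16_2xIFNRs (0.29, adjusted p = 0.157, and 0.20, adjusted p = 0.323). P2ry12, a receptor of resting microglia, was below WT, with 27.7, 44.1 and 49.5 CPM in WT, 29.6, 33.8 and 41.7 CPM in Dp16 and 29.6, 33.3 and 37.8 CPM in Dp16_2xIFNRs (-0.29, adjusted p = 0.434, and -0.35, adjusted p = 0.203). The groups overlapped for all 3 genes. Each of the 3 stood at 1 end of its list. At the other end of the astrocyte list, Gja1 had log2 fold changes of -0.08 in Dp16 and -0.09 in Dp16_2xIFNRs against WT. In the same order Mbp had -0.04 and 0.02 in the oligodendrocyte list, and Aif1 had 0.01 and -0.02 in the microglia list. The part of cell composition in the values of the stress response genes was not tested.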

How the data were processed

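Cortex RNA of 18 mice was measured, 6 per genotype, grouped by the labels. TRIzol extraction, poly(A) selection, strand-specific library preparation (Tecan/Nugen Universal Plus mRNA) and paired-end NovaSeq sequencing are recorded in the labels' protocols. The submitters' processing notes name HTSeq 0.6.1, HISAT2 2.1.0, SAMtools 1.5, FastQC 0.11.5 and bcl2fastq, with GRCm38 as build. How strand and shared reads were handled in counting was not given in the sources used here.

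The authors deposited raw counts per gene, without normalization, and RPKM values. For 31735 of 31735 genes with counts in several libraries the deposited RPKM equalled the count divided by library total and 1 length per gene (relative tolerance 1e-06). Totals ran from 46346019 to 67281449 counts, with a common biological coefficient of variation of 12.2% and 14 residual degrees of freedom.

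Counts were filtered with filterByExpr (minimum count 10), normalized by TMM and tested with the quasi-likelihood test of edgeR 4.0.16 in R 4.3.3, in 1 fit of all 18 libraries on genotype and sex, checked on simulated data. A gene was called where its p, adjusted by Benjamini-Hochberg over 18717 genes, was below 0.05. Log2 fold changes carry the standard error (SE) and folds the 95% interval of the fit. The labels do not say what else the mice share, so p-values measure the spread between these samples. Library names carry a number whose meaning is not stated, and 11 libraries share 5 of its 12 values, so that some libraries may not be independent. Residual SD is that of log2 CPM (prior count 2) after genotype and sex. Positions are those of GENCODE release M21, the same build, and 22 of the 41 genes overlap another annotated gene, 10 of them one with a mean count of at least 10.

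Named with values were called genes, the 4 genes of smallest p against WT in each of 4 role groups, and Atf4, Ddit3, Xbp1, Hspa5, Asns and Phgdh. Of each wider list, called genes or the gene of smallest p were named. The genes, lists and this rule were chosen with earlier results of these data known. Alternatives were RLE size factors, other filters on low counts, DESeq2 1.42.0, limma-voom and limma-trend on log2(RPKM + 0.1) (limma 3.58.1), other terms, only the genotypes compared, and libraries left out. The shared number as a random block was added after seeing the data. Protein sequences were not analysed here.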

Additional observations from a re-analysis of the deposited data

Results flagged for a closer look

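In 7 of 129 sets of 6 values (41 genes and 2 arm scores in 3 genotypes) 1 library stood apart by Dixon's criterion, which compares its gap to the nearest value with the whole range. Chance gives about 1 in 20, and 7 of 129 is close to that.

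Asns in Dp16 replicate 4 had 76.7 CPM, against 88.2 to 92.1 CPM in the other 5 libraries. Nupr1, a stress-induced chromatin factor, had 4.882 CPM in Dp16 replicate 3, against 6.16 to 6.79 CPM. Pdia4 had 35.48 CPM in Dp16 replicate 6, against 42.0 to 45.8 CPM, and the same library had the lowest chaperone arm score of Dp16, -0.146, against -0.02 to 0.05. Phgdh had 55.6 CPM in Dp16_2xIFNRs replicate 6, against 63.6 to 68 CPM.

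The remaining values stood above their group. Eif2ak3 had 34.05 CPM in WT replicate 1, against 28.7 to 29.6 CPM, and its log2 fold change in Dp16 was -0.07 with that library and -0.03 without it. Slc3a2 had 133.6 CPM in WT replicate 4, against 109 to 118 CPM.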

How the results depend on the processing

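No called value changed sign. When 1 library was left out, the median log2 fold change of the ATF4 arm lay between 0.01 and 0.10 in Dp16 and between 0.04 and 0.13 in Dp16_2xIFNRs. That of the chaperone arm lay between -0.03 and 0.01 and between 0.05 and 0.09, and the difference of the arms in Dp16_2xIFNRs between -0.02 and 0.06. In the same fits the count of listed genes called ran from 0 to 1 in Dp16, from 0 to 2 in Dp16_2xIFNRs and stayed at 0 between the duplication genotypes. With only the genotypes compared in the fit it was 0 in both comparisons with WT, and without both WT replicate 6 and Dp16 replicate 3, which earlier results had set apart, it was 0 in Dp16. In Dp16_2xIFNRs the count was 2 with no filter, on log2 RPKM with limma-trend and with age added, and 3 with DESeq2 (Atf5, Chac1 and Mthfd2), with Atf5 the second gene in each case. Over all genes DESeq2 called 250 in Dp16 against 140 by edgeR, and 405 in Dp16_2xIFNRs against 196. Adjusted p of Atf5 in Dp16 ranged from 0.000637 to 0.0936 over all alternatives, and that of Mthfd2 in Dp16_2xIFNRs from 0.00218 to 0.103. The causes of these changes were not tested.

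Groups share replicate numbers, but the labels do not say that a number pairs samples, and 11 of 18 same-number pairs correlated above 0.1 (range -0.18 to 0.43), with 10 of 18 best with their own number. With the replicate number as a block, the listed genes called numbered 2 in Dp16_2xIFNRs (Atf5 added, adjusted p = 0.00239) and 1 in Dp16, and all genes called in Dp16_2xIFNRs numbered 304. An added fit, chosen after seeing the data, took the number shared by library names (5 numbers, 11 libraries, each number within 1 sex) as a random block in limma-voom, with an estimated correlation of 0.25. It called 1 listed gene in Dp16 (Atf5), 2 in Dp16_2xIFNRs (Atf5 and Mthfd2) and 0 between the duplication genotypes.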
